A study of Homo sapiens with 20 samples.

Results

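The genes described here are 8 genes for surface proteins through which a tumor cell can restrain immune cells: CD274, PDCD1LG2, CD276, VTCN1, CD47, NT5E, PVR and NECTIN2. They were picked by gene name, with earlier results of these data known, from the 60271 genes of the count table, and all 8 were among the 16522 genes with enough counts to test. CD274 and PDCD1LG2 passed that filter on low counts only through the EGF-treated groups, since the untreated libraries held 4 to 8 counts of CD274 each and 1 count of PDCD1LG2 in all. The study used MDA-MB-468, an epithelial line from a triple negative breast cancer, in which epidermal growth factor (EGF) was used to induce an epithelial-mesenchymal transition. RNA was sequenced from 20 libraries in 5 groups of 4 biological replicates: an untreated control (CTR) and cells given EGF at 50 ng/mL for 12, 24, 48 or 72 h. All cells were serum-starved before EGF was added, the controls included, and all groups were seeded and harvested together so that only the time of EGF addition differed. The groups are thus 1 cell line in culture with no immune cells added, and the mRNA of a ligand was measured, not its protein or its effect on an immune cell.

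Immune checkpoints are receptor and ligand pairs that set how strongly a T cell, natural killer (NK) cell or macrophage responds to a target. PD-L1 and PD-L2, encoded by CD274 and PDCD1LG2, bind PD-1 on T cells, whereas B7-H3 (CD276) and B7-H4 (VTCN1) are B7 family members that also dampen T cells. CD47 binds SIRPα on macrophages and restrains phagocytosis, CD73 (NT5E) makes immunosuppressive adenosine outside the cell, and PVR and NECTIN2 are bound by the inhibitory receptors TIGIT, CD96 and PVRIG and by the activating receptor CD226.

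EGF-treatment was followed by opposite changes in 2 B7 family ligands. CD274 was the member with the largest rise that rested on more than a single control count, from a mean of 0.261 CPM in CTR (counts scaled to a library total of 1000000) to 14.7 CPM after 12 h. VTCN1 was the member that fell, from 291 to 36.0 CPM. The stretches of genome just before the start of these genes are given to show how they differ in letters. Both were read from RefSeq promoter windows (GRCh38.p14), 5′ to 3′ on the strand of the gene, and end at the last base before the gene's start in GENCODE 29. CD274 is on the plus strand, chr9:5450292-5450502, and VTCN1 on the minus strand, chr1:117210961-117211177. Capitals mark matches to any of 6 short motifs on either strand.
CD274: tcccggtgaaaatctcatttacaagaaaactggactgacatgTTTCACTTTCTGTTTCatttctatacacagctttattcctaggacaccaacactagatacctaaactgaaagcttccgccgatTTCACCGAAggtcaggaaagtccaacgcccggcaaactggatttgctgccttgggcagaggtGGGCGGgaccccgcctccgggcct
VTCN1: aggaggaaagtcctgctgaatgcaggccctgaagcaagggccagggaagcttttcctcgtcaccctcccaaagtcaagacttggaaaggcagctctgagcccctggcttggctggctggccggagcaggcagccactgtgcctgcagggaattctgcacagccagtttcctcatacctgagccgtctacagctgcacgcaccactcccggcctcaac

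The motifs were searched in the 250 bases before the RefSeq start. The CD274 window held 2 overlapping matches to a pair of GAAA separated by any 2 bases, the paired core of an interferon-stimulated response element, at 208 and 202 bases before the start. The same window held 1 match to TTCNNNGAA, the form bound by STAT proteins, and 1 GC box (GGGCGG). Among 35116 RefSeq promoters of the same length, 3.02% held the GAAA pair, 6.57% held TTCNNNGAA and 42.6% held GGGCGG. The VTCN1 window held none of these letters, nor TGANTCA (in 6.57% of promoters), TATAAA (10.7%) or TGACGTCA (1.65%). A match is a run of letters and not evidence of binding, and 7 of the 8 members were in the promoter table. The window of PVR, which rose, also held none of the 6 motifs. The windows of CD47, NT5E, CD276 and NECTIN2 held GC boxes only.

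The libraries held 15611961 to 25856953 counts, and the group medians ran from 17292986.5 counts at 72 h to 21972653 counts at 12 h. Mitochondrial transcripts took a mean of 10.9% of counts in CTR and 9.41%, 12.4%, 12.5% and 15.0% in the 12, 24, 48 and 72 h groups, and their part in the results was not tested. Replicate 2 at 48 h stood apart from its group, with 16.9% mitochondrial counts, beside 9.83% to 12.1% in the other 3 libraries. In CTR the most unlike pair was replicates 2 and 3, and replicates 2 and 4 were the most alike, with 12.6% and 12.4% mitochondrial counts. Epithelial markers were abundant in the controls, with 787 CPM of KRT18 and 181 CPM of EPCAM, while PGR was at 0 in every library, ERBB2 at 21.5 CPM and ESR1 at 5.03 CPM. Of 25 immune cell markers and receptors, 5 passed the filter. The summed level of all 25 ran from 7.76 to 9.75 CPM in CTR, 4.54 to 5.83 CPM at 12 h and 7.50 to 9.48 CPM at 24 h. It ran from 18.7 to 23.8 CPM at 48 h and 16.6 to 19.4 CPM at 72 h. PTPRC, the common leukocyte marker, had group means of 0.184 CPM or less, and CD3D, MS4A1, PDCD1, CTLA4 and TIGIT were at 0 in every group. The 5 that passed went the other way late: 4 were higher and 0 lower than in CTR at 48 h and again at 72 h (edgeR adjusted p below 0.05). Their median log2 fold changes were 1.44 and 1.13, and 24% and 30.6% of all genes were called higher. At 12 h 1 was higher and 2 lower, and at 24 h 2 and 1. In CTR 23 of the 25 had a mean below 1 CPM, so some of the 5 may have passed the filter only through the EGF-treated groups. The late counts and medians may thus be fixed in part by the filter. With at least 10 counts required in every library, 3 were tested, with 3 higher and 0 lower at 48 h and at 72 h. In that setting 0 were higher and 2 lower at 12 h, and 1 and 1 at 24 h. Of 10 fibroblast and endothelial markers, 3 passed the filter, and the summed level of all 10 was 7.59 to 10.3 CPM in CTR and 16.8 to 18.6 CPM at 72 h. EGFR, the receptor of EGF, rose from 3471 to 11746 CPM at 12 h and was 5861 CPM at 72 h.

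At 12 h, 7 of 8 members were higher and 1 was lower than in CTR (edgeR quasi-likelihood test, Benjamini-Hochberg adjusted p below 0.05), whereas 69.4% of all genes tested passed, 32.9% higher and 36.5% lower. At 24 h, 5 were higher and 1 lower, beside 58.8% of all genes (29.2% higher, 29.6% lower). At 48 h 3 were higher and 1 lower, beside 45.8% (24% and 21.8%). At 72 h 5 were higher and 1 lower, beside 61.6% (30.6% and 31%). With so many genes called, the number of members called stood not far above the background at 24 and 72 h and close to it at 48 h. Changes of at least 1.5-fold among the called were found in 7, 5, 3 and 5 members at 12, 24, 48 and 72 h, where 46.6%, 33.7%, 22% and 35.8% of all genes had one. The libraries did not overlap CTR for 7, 6, 3 and 6 members, where the same held for 60.8%, 48.2%, 35% and 52% of all genes. The median log2 fold change of the members was 1.35, 0.74, 0.11 and 0.88 at 12, 24, 48 and 72 h, beside -0.05, -0.01, 0.01 and -0.01 over all genes. The 4 comparisons share the same 4 control libraries. CD274 and PDCD1LG2 had to differ from CTR to pass the filter, so these counts and medians are no support for a rise. Of the other 6 members, 5 were higher and 1 lower at 12 h, 3 and 1 at 24 h, 1 and 1 at 48 h, and 3 and 1 at 72 h, with median log2 fold changes of 0.87, 0.33, 0.05 and 0.20.

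**Figure D1:**
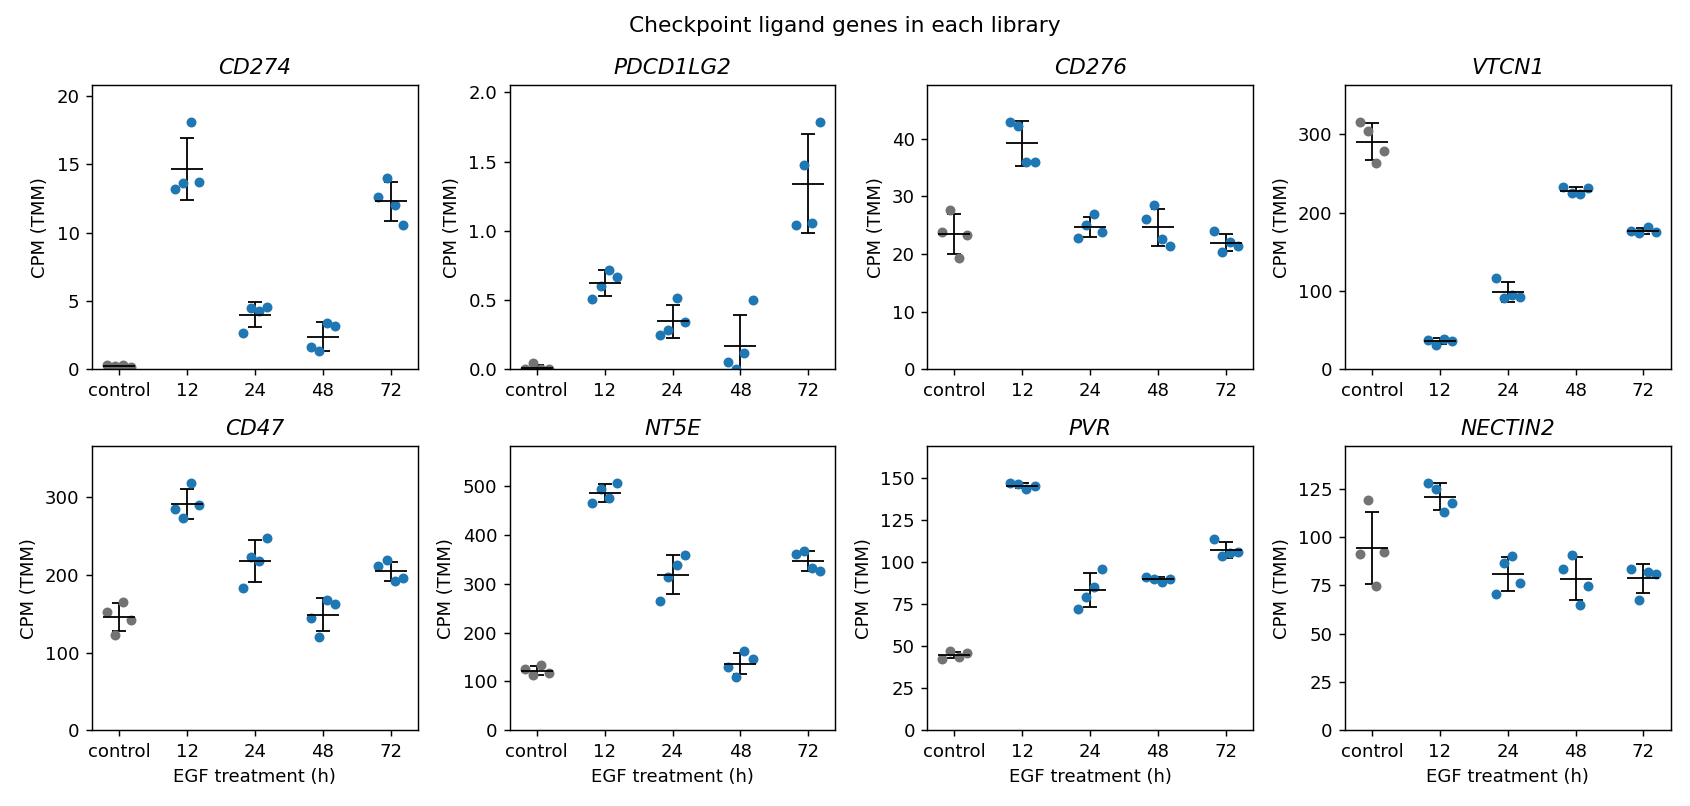
Level of each of the 8 genes in every library, in CPM after TMM scaling on linear axes that start at 0 and differ between panels, for control (grey) and cells given EGF for 12 to 72 h (blue). Each point is 1 library, and the long bar and whiskers give the mean ± SD of 4 libraries; CD274 is 0.192 to 0.341 CPM in the controls and 13.2 to 18.1 CPM at 12 h, whereas VTCN1 falls from at least 264 CPM to at most 39.0 CPM.

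CD274 encodes PD-L1, the main ligand of PD-1, and is located at chr9:5450503-5470566 (GRCh38, plus strand, 7 merged exons). The 4 CTR libraries held 0.301, 0.210, 0.341 and 0.192 CPM, from 4 to 8 counts each. At 12 h the libraries held 13.2, 13.6, 18.1 and 13.7 CPM. Every 12 h library was above every control, and the third replicate stood above the other 3. CD274 then declined to 2.67, 4.52, 4.23 and 4.58 CPM at 24 h. At 48 h the values were 1.61, 1.32, 3.42 and 3.17 CPM, with the first pair of replicates below every 24 h library. At 72 h the transcript was back at 12.6, 14.0, 12.0 and 10.6 CPM, with 3 of 4 libraries just below the lowest 12 h library. No EGF-treated library at any time overlapped the controls. In bulk RNA, more cells with the transcript and more transcript per cell cannot be told apart, here and for the other genes.

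The log2 fold change of CD274 against CTR was 5.78 at 12 h (SE 0.296, edgeR adjusted p = 3.80e-14), 3.90 at 24 h (adjusted p = 5.35e-10), 3.19 at 48 h (adjusted p = 7.78e-08) and 5.53 at 72 h (adjusted p = 1.18e-13). The change at 12 h ranked 59 from the top among the 16522 genes. CD274 was tested because of its EGF-treated libraries, so its p-values against CTR are no support for a rise. It was called at all 4 times also without the filter on low counts. The course had a trough, tested between the EGF times themselves: CD274 fell by 2.59 on the log2 scale from 12 to 48 h (edgeR adjusted p = 2.11e-10) and rose by 2.34 from 48 to 72 h (adjusted p = 1.08e-08). From 24 to 48 h it fell by 0.71 (edgeR adjusted p = 0.0124). The levels at 72 and 12 h were not separated, with a difference of -0.25 and a 95% interval of -0.61 to 0.11 (edgeR adjusted p = 0.239), although a fit of only those 8 libraries gave -0.23 with adjusted p = 0.0489.

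PDCD1LG2 encodes PD-L2, the other PD-1 ligand, and lies downstream of CD274 at chr9:5510570-5571254 (GRCh38, plus strand), 40004 bases past its end. It was the scarcest member. In CTR, 3 libraries held no count and replicate 2 held 1 count, or 0.0420 CPM. The 12 h libraries held 0.505, 0.599, 0.718 and 0.669 CPM, and those at 24 h held 0.247, 0.282, 0.513 and 0.341 CPM. Every library of both groups was above the controls.

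The 48 h values of PDCD1LG2 were spread from 0 in replicate 2 and 0.0554 and 0.114 in replicates 1 and 3 to 0.498 CPM in replicate 4. At 72 h it reached 1.04, 1.48, 1.06 and 1.79 CPM, above every library of every other group. Against the single control count, the 48, 25, 15 and 100 counts at 12, 24, 48 and 72 h gave ratios of 54.7, 29.7, 15.2 and 114 after correction for depth. The exact binomial 95% intervals, which cover counting error only, were wide: 9.36 to 2205 at 12 h, 4.86 to 1220 at 24 h, 2.34 to 639 at 48 h and 20 to 4549 at 72 h. PDCD1LG2 was called at all 4 times by edgeR with and without the filter on low counts, which it passed only because of the EGF-treated libraries, so the counts and intervals are given in place of p-values. The call at 48 h rested on replicate 4, without which the edgeR adjusted p was 0.153.

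Like CD274, PDCD1LG2 had its lowest mean among the EGF times at 48 h, but it peaked at 72 h. The step from 24 to 48 h was -0.96 and did not pass (edgeR adjusted p = 0.176). The libraries of these groups overlapped, and the step passed without replicate 4 at 48 h (-2.37, adjusted p = 0.00277). PDCD1LG2 fell by 1.82 on the log2 scale from 12 to 48 h (edgeR adjusted p = 0.00381) and rose by 2.91 from 48 to 72 h (adjusted p = 5.71e-05). The difference between 72 and 12 h was 1.09 (edgeR adjusted p = 0.0239). That call did not hold when replicate 1 or 2 at 12 h or replicate 2 or 4 at 72 h was left out, with adjusted p-values of 0.0512 to 0.0808. PDCD1LG2 passed the filter on low counts only through the groups in which it was high. The p-values between EGF times are therefore no support for its low mean at 48 h or its peak, although the calls were also made without that filter.

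CD276 encodes B7-H3 (chr15:73683966-73714518, GRCh38, plus strand). Its CTR libraries held 23.8, 27.7, 19.2 and 23.3 CPM and its 12 h libraries 42.9, 42.3, 35.9 and 35.9 CPM, with no overlap. It rose by 0.74 on the log2 scale at 12 h (SE 0.104, edgeR adjusted p = 1.05e-06). The rise was present at that time alone. At 24 h the values were 22.8, 25.01, 27.0 and 23.9 CPM, at 48 h 26.0, 28.5, 22.7 and 21.3 CPM, and at 72 h 24.0, 20.4, 22.1 and 21.4 CPM, all overlapping CTR. The log2 fold changes at these times were 0.07, 0.06 and -0.10, with 95% intervals reaching from -0.30 to 0.27. CD276 was lower at each later time than at 12 h, for instance by -0.83 on the log2 scale at 72 h (edgeR adjusted p = 2.53e-07).

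VTCN1 encodes B7-H4, a ligand of the B7 family that is common in breast epithelium, and lies at chr1:117143587-117210960 (GRCh38, minus strand, 8 merged exons). The CTR libraries held 316, 304, 264 and 278 CPM. At 12 h VTCN1 was down to 37.8, 31.4, 39.0 and 35.6 CPM. No library came near the controls, and the log2 fold change of -3.01 (SE 0.0848, edgeR adjusted p = 7.67e-19) ranked 19 of 16522 genes by its p-value.

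VTCN1 then recovered in part. It was 117, 90.7, 94.6 and 92.7 CPM at 24 h, with replicate 1 above the rest, and 233, 226, 223 and 231 CPM at 48 h. At 72 h it was lower again, at 176, 173, 182 and 175 CPM. The 5 groups were fully separated, in the order 12, 24, 72 and 48 h and CTR, and all neighbors in this order differed in the edgeR test, with adjusted p of 7.11e-04 or less. Against CTR the log2 fold change was -1.56 at 24 h (edgeR adjusted p = 4.16e-14), -0.35 at 48 h (adjusted p = 7.11e-04) and -0.72 at 72 h (adjusted p = 2.51e-08). VTCN1 rose by 2.67 from 12 to 48 h (edgeR adjusted p = 1.86e-17) and fell by 0.37 from 48 to 72 h (adjusted p = 6.21e-04), so at each step it moved in the direction opposite to CD274.

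**Figure D2:**
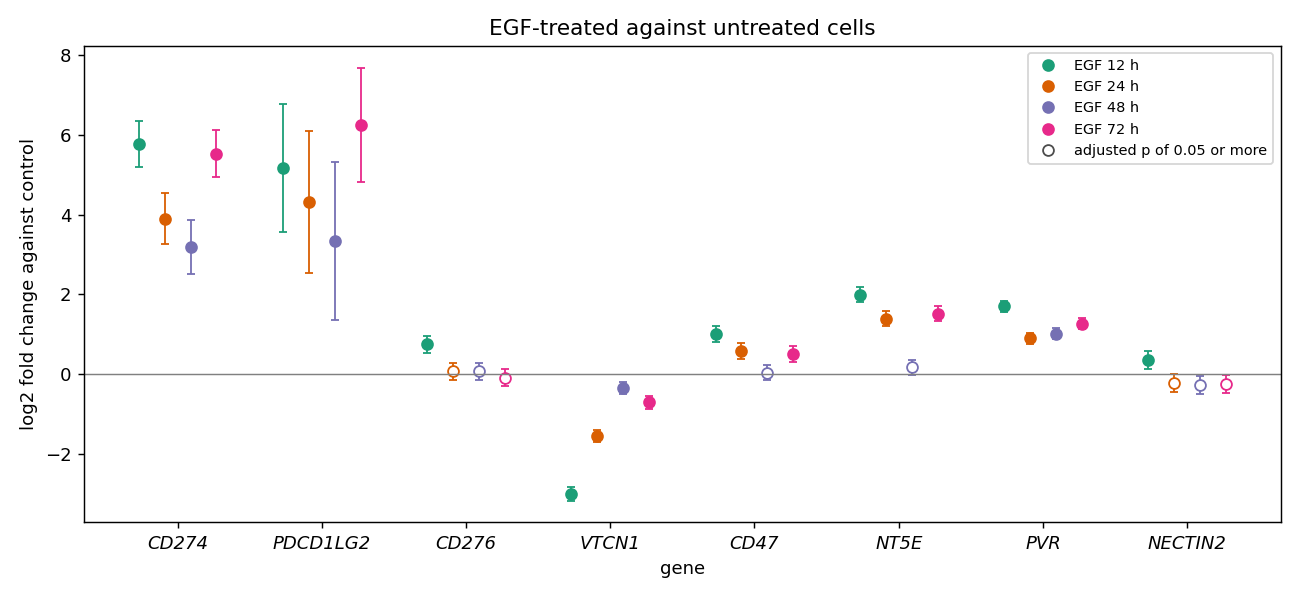
Log2 fold change of each gene against control at each EGF time, from the edgeR fit of all 20 libraries, with bars for the 95% interval. Filled points passed an adjusted p below 0.05 and open points did not; CD274 and PDCD1LG2 lie above 3 at every time (the PDCD1LG2 values rest on 1 control count and move with the prior count), VTCN1 is below 0 at every time, and CD47 and NT5E return close to 0 at 48 h.

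CD47 encodes the ligand of SIRPα that restrains phagocytosis (chr3:108043094-108091862, GRCh38, minus strand). It held 152, 122, 165 and 142 CPM in CTR and 285, 273, 318 and 290.3 CPM at 12 h. The 24 h libraries held 183, 223, 218 and 247 CPM. Both groups lay above all controls. At 48 h the values of 144, 120.2, 168 and 162 CPM covered the control range, and at 72 h they were 211, 218, 193 and 196 CPM, again above it. The log2 fold change was 1.005 at 12 h (edgeR adjusted p = 5.56e-09), 0.58 at 24 h (adjusted p = 2.87e-05), 0.03 at 48 h (95% interval -0.17 to 0.23, adjusted p = 0.814) and 0.49 at 72 h (adjusted p = 1.88e-04). The level rose by 0.46 from 48 to 72 h (edgeR adjusted p = 9.85e-04).

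NT5E encodes CD73, the surface enzyme that converts AMP to adenosine (chr6:85449584-85495791, GRCh38, plus strand). Its CTR values were 125, 114, 134 and 117 CPM and its 12 h values were 465, 494, 476 and 507 CPM. It held 265, 314, 339 and 359 CPM at 24 h. No library of these groups overlapped the controls. At 48 h NT5E was 131, 109, 162 and 146 CPM, with replicate 2 below all controls and the last pair of replicates above them. At 72 h it was 362, 368, 333 and 327 CPM.

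The log2 fold change of NT5E was 1.99 at 12 h (SE 0.0993, edgeR adjusted p = 1.90e-14), 1.39 at 24 h (adjusted p = 1.71e-11) and 1.51 at 72 h (adjusted p = 3.08e-12). At 48 h it was 0.16 (95% interval -0.03 to 0.35, edgeR adjusted p = 0.176). Without replicate 2 at 48 h, the library that stood apart, the 48 h value was 0.26 with an adjusted p = 0.021, and without that library and control replicate 2 it was 0.22 (adjusted p = 0.0459). The step from 12 to 48 h was -1.83 (edgeR adjusted p = 1.51e-13) and that from 48 to 72 h was 1.35 (adjusted p = 2.47e-10).

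PVR encodes CD155, the main ligand of TIGIT (chr19:44643798-44663583, GRCh38, plus strand). It shares 3.44% of its exon bases with CEACAM19 on the same strand, and reads from that stretch cannot be assigned. The CTR libraries held 42.6, 47.0, 43.6 and 45.7 CPM and the 12 h libraries 147, 146, 143 and 145 CPM. At 24 h the values were 72.2, 79.3, 85.1 and 96.0 CPM. PVR stayed above every control at all times, including 48 h (91.3, 90.0, 88.0 and 89.9 CPM) and 72 h (114, 103, 105 and 106 CPM). The log2 fold change was 1.70 at 12 h (SE 0.0705, edgeR adjusted p = 6.60e-16), 0.89 at 24 h (adjusted p = 1.11e-10), 1.005 at 48 h (adjusted p = 2.88e-11) and 1.26 at 72 h (adjusted p = 1.60e-13). In contrast to CD47 and NT5E, PVR had no trough at 48 h: the step from 24 to 48 h was 0.11 (95% interval -0.02 to 0.25, edgeR adjusted p = 0.185) and that from 48 to 72 h was 0.26 (adjusted p = 0.0052). With library totals alone as the scaling these steps were 0.27 (adjusted p = 0.00215) and 0.17 (adjusted p = 0.0544), so that the first passed and the second did not, and the first passed also with upper quartile scaling and without replicate 4 at 24 h (0.18 and 0.19).

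NECTIN2 encodes CD112, the ligand of PVRIG, and lies at chr19:44846175-44889228 (GRCh38, plus strand), 182592 bases past the end of PVR. An antisense gene covers 3.42% of its exon bases, and the strand setting of the counting is not given in the sources used here. NECTIN2 held 91.2, 119, 74.4 and 92.1 CPM in CTR, with a coefficient of variation of 19.7%, the largest in that group among the members above 10 CPM. At 12 h it was 128, 125, 113 and 117 CPM, with 2 of 4 libraries above all controls. The log2 fold change of 0.36 at 12 h passed the edgeR test (adjusted p = 0.00881), but with scaling by library size only it was 0.07 (adjusted p = 0.588) and with upper quartile scaling 0.19 (adjusted p = 0.19).

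At 24 h NECTIN2 was 70.6, 86.3, 90.1 and 76.4 CPM, at 48 h 83.3, 90.6, 64.9 and 74.6 CPM, and at 72 h 83.5, 67.5, 82.0 and 81.1 CPM. Each group overlapped CTR. The log2 fold changes of -0.22, -0.27 and -0.26 did not pass (edgeR adjusted p = 0.105, 0.0639 and 0.055), though all 3 passed without control replicate 3, the lowest control (-0.32, -0.37 and -0.36, with adjusted p = 0.016, 0.00934 and 0.00686). The fall from 12 h to each later time passed, by 0.58 to 0.63 on the log2 scale (edgeR adjusted p of 2.23e-04 or less).

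In comparisons between the EGF times, the fall from 12 to 48 h was common to 7 members. From 12 to 48 h, 7 members fell and VTCN1 rose, beside 70.3% of all genes called (37.7% higher, 32.5% lower). All 8 changed by at least 1.5-fold, as did 46.4% of genes, and none overlapped between the groups, as held for 65% of genes. From 48 to 72 h, 5 members rose (CD274, PDCD1LG2, CD47, NT5E and PVR) and VTCN1 fell, beside 35.7% of genes called, 17.9% in each direction. From 12 to 24 h, 6 fell and VTCN1 rose (background 53.7%, with 27.9% higher and 25.9% lower). From 12 to 72 h, 5 fell and VTCN1 and PDCD1LG2 rose (67.6%, with 35.6% higher and 32% lower). From 24 to 48 h, 3 fell and VTCN1 rose (50.2%, with 25.9% higher and 24.3% lower). From 24 to 72 h, 4 rose and 0 fell in the edgeR test (40.2%, with 20.6% higher and 19.7% lower), those 4 being CD274, PDCD1LG2, VTCN1 and PVR. In this last step the unadjusted p of the other 4 members was 0.143 to 0.739. Among the 6 members that pass the filter on the control libraries alone, 5 fell and 1 rose from 12 h to each later time. Of these 6, 2 fell and 1 rose from 24 to 48 h, 2 rose and 0 fell from 24 to 72 h, and 3 rose and 1 fell from 48 to 72 h.

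**Figure D3:**
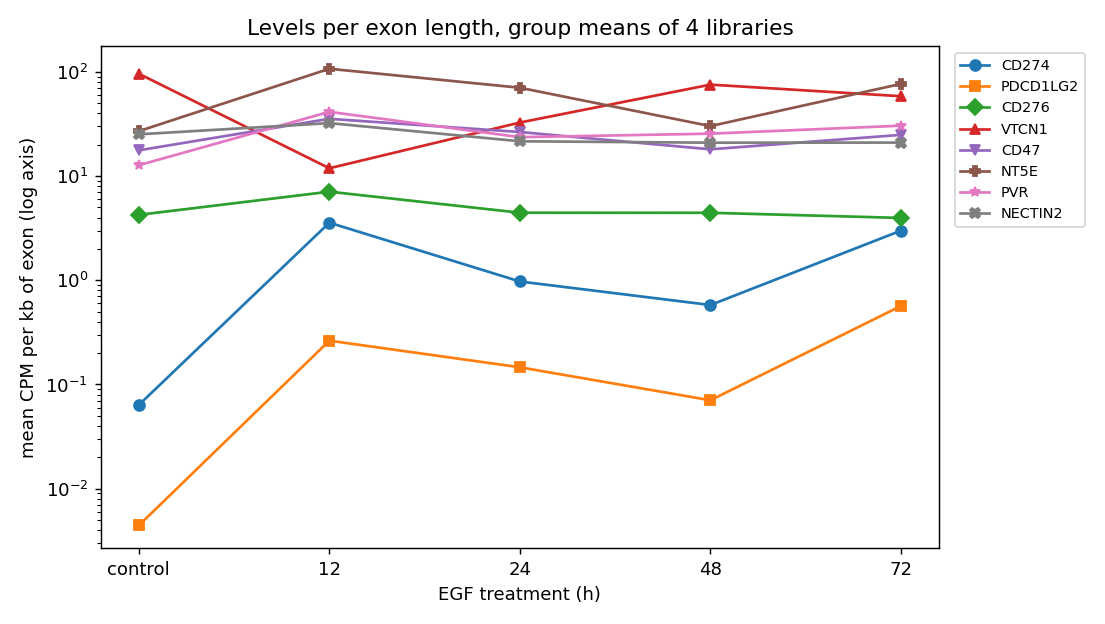
Mean level of each gene per kilobase of merged exon sequence (CPM per kb, log axis) in control and at 12 to 72 h of EGF, each point the mean of 4 libraries. VTCN1 is the highest line in control (96.0) and at 48 h (75.4), while NT5E is the highest at 12 h (107), 24 h (70.4) and 72 h (76.7).

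Levels of different genes were set side by side per kilobase of the merged exons of all annotated transcripts. That length can exceed that of the transcript expressed, so close ranks rest on this choice. On that scale VTCN1 was the most abundant member in CTR at 96.0 CPM per kb, followed by NT5E at 27.0 and NECTIN2 at 25.1. At 12 h NT5E led at 107 CPM per kb, PVR was next at 41.3, and VTCN1 ranked 5 of 8 at 11.9. By 48 h the order had VTCN1 at the top again, with 75.4 CPM per kb, above NT5E at 30.2. CD274 ranked 7 of 8 at every time in spite of its change, with 0.0636 CPM per kb in CTR and 3.57 at 12 h, and PDCD1LG2 ranked last. Differences between genes on this scale were not tested.

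Within groups, several members deviated together. The correlation of the deviations from the group means over the 20 libraries was 0.88 for CD274 with CD47, 0.86 for CD274 with NT5E and 0.88 for CD47 with NT5E. CD276 and NECTIN2 formed another pair with 0.89, while CD276 and CD47 gave -0.63. These values describe libraries that share a preparation and a scaling. In replicate 2 at 48 h, CD274 was 0.69, CD47 0.29 and NT5E 0.31 below the group mean on the log2 scale, while CD276 and NECTIN2 were each 0.22 above it. Control replicate 2 had the same signs, with NECTIN2 0.36 above its group mean and CD47 below it. Control replicate 4, with a mitochondrial share close to that of control replicate 2, lay within 0.06 of its group mean for CD47, NT5E, CD276 and NECTIN2. For CD274 it lay 0.29 below its group mean, beside 0.20 below in control replicate 2. These CD274 values rest on 4 counts in control replicate 4 and 5 in control replicate 2, so they are limited by counting error. The part of the mitochondrial share in this pattern was not tested.

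**Figure D4:**
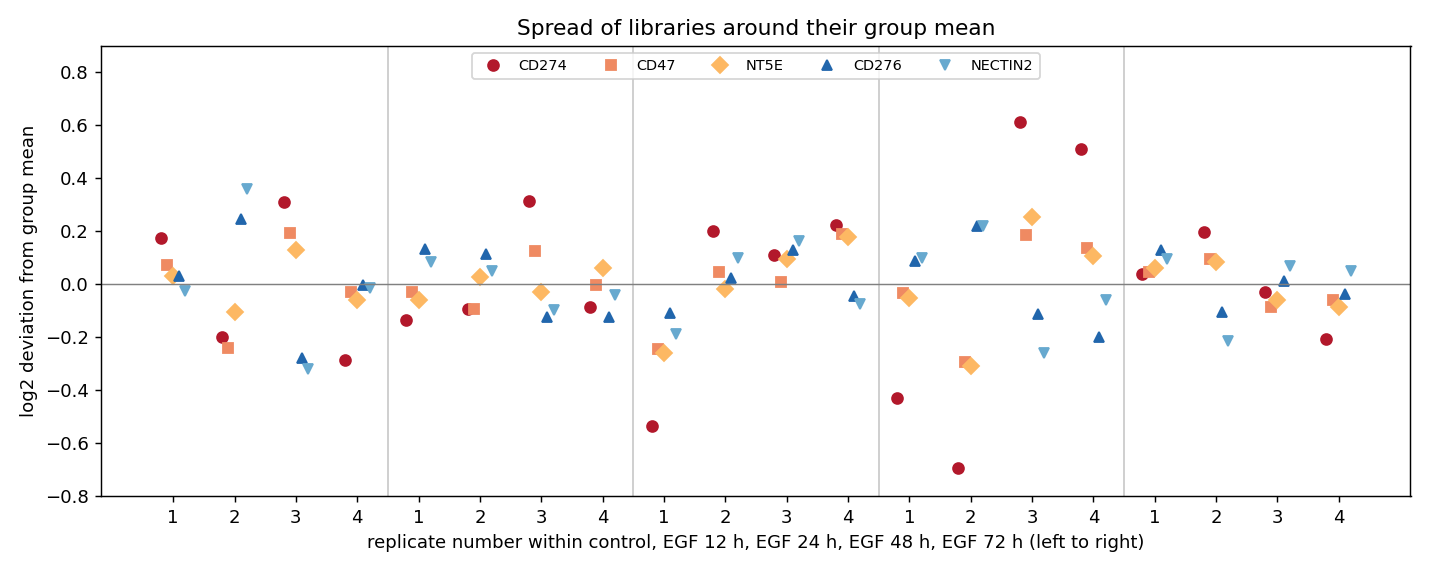
Deviation of each library from the mean of its group, on the log2 scale, for CD274, CD47 and NT5E (red and orange) and CD276 and NECTIN2 (blue). Libraries run by replicate number within control, EGF 12 h, 24 h, 48 h and 72 h, separated by grey lines; in replicate 2 of control and replicate 2 at 48 h the blue points lie above 0 and the others below. The CD274 points in control rest on 4 to 8 counts each.

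Over the 20 libraries, the protein-coding genes with a pattern most like CD274 were LOX (Pearson r = 0.987) and SEC23B (0.984), out of 12239 genes with a mean of at least 1 CPM. For PDCD1LG2 they were ITGA1 (0.955) and C10orf88 (0.943), for CD276 CCDC120 (0.975) and CDC42EP1 (0.968), and for VTCN1 PPP1R3C (0.993) and CYP39A1 (0.985). For CD47 they were GNL3 (0.984) and DEGS1 (0.983), for NT5E SLC6A14 (0.988) and GRPEL2 (0.987), for PVR MYPN (0.977) and EXT1 (0.976), and for NECTIN2 GRINA (0.961) and DAXX (0.953). These are correlations of log2 CPM over libraries of the same 5 groups and are given as a description.

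The other co-receptor ligands moved in both directions. Of 27 listed genes 17 were tested, with 4 higher and 8 lower at 12 h, 4 and 10 at 24 h, 5 and 5 at 48 h, and 9 and 4 at 72 h. Of all genes tested, 32.9% were higher and 36.5% lower at 12 h, and 29.2% and 29.6% at 24 h. At 48 h the shares were 24% and 21.8%, and at 72 h 30.6% and 31%. The counts of the lists below are to be read beside the same shares. With library totals alone as the scaling, 4 were higher and 12 lower at 12 h. CEACAM1, an adhesion molecule and ligand of TIM-3, rose from 28.8 to 217 CPM at 24 h (a log2 change of 2.91, edgeR adjusted p = 3.02e-15), was 55.5 CPM at 48 h and was 215 CPM at 72 h. VSIR, which encodes the B7-like protein VISTA, rose from 5.15 to 33.1 CPM at 12 h (2.69, adjusted p = 3.06e-12). BTN3A3, a butyrophilin, fell from 12.5 to 2.83 CPM at 12 h (a log2 change of -2.13, edgeR adjusted p = 1.15e-13) and was 19.8 CPM at 72 h. CD24, the ligand of Siglec-10 on macrophages, fell from 5347 CPM in CTR to 1373 CPM at 72 h (-1.961, adjusted p = 8.27e-19).

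Genes of interferon and JAK-STAT signaling, the pathway best known for inducing CD274, gave 10 higher and 3 lower of 15 at 12 h, 6 and 4 at 24 and 48 h, and 8 and 4 at 72 h. With library totals alone as the scaling the counts were 6 and 4 at 12 h and 3 and 6 at 24 h, so that the balance at 24 h turned. The list's median log2 fold change was 0.35 at 12 h, beside -0.05 for all genes. IRF1, a transcription factor of that pathway, rose from 15.3 to 36.1 CPM at 12 h (a log2 change of 1.24, edgeR adjusted p = 8.26e-09) and was 11.8 CPM at 24 h, 21.6 CPM at 48 h and 19.3 CPM at 72 h. SOCS3, a feedback inhibitor of cytokine signaling, rose from 3.11 to 36.4 CPM at 12 h (3.55, adjusted p = 1.18e-16) and was 3.69 CPM at 72 h. SOCS1 fell at 48 h (-1.88, edgeR adjusted p = 3.11e-04). IFNGR1, a chain of the interferon gamma receptor, fell at every time, from 275 CPM to 106 CPM at 24 h (-1.38, adjusted p = 1.60e-12).

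JAK2, which lies near CD274 on chromosome 9, had a log2 fold change of 0.18 at 12 h (edgeR adjusted p = 0.114), which was -0.10 with library totals alone as the scaling and passed without control replicate 3 (0.25, adjusted p = 0.0339). It rose by 0.29 at 24 h (edgeR adjusted p = 0.016), 0.31 at 48 h (adjusted p = 0.0128) and 0.52 at 72 h (adjusted p = 7.70e-05). The 24 h call was lost with library totals alone (adjusted p = 0.225) and without control replicate 2 (adjusted p = 0.0615), and the 48 h call without replicate 3 at 48 h (adjusted p = 0.0685), in a fit of 8 libraries (adjusted p = 0.0833) and with the per-gene factors of the deposited normalized values (adjusted p = 0.153).

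Of 13 neighbors of CD274 in chromosome band 9p24, 11 were tested, with 3 higher and 4 lower at 12 h, 3 and 1 at 24 h, 2 and 1 at 48 h, and 5 and 3 at 72 h. Library totals alone gave 2 higher and 7 lower at 12 h. The median log2 fold change of these neighbors at 12 h was -0.17. SLC1A1, a glutamate transporter, rose from 4.98 to 15.7 CPM at 24 h (a log2 change of 1.65, edgeR adjusted p = 1.89e-12), and RCL1 rose at 12 h (1.22, adjusted p = 4.05e-12). PLPP6 fell at 12 h (-1.21, edgeR adjusted p = 6.94e-07), and ERMP1 fell from 65.0 to 30.7 CPM at 72 h (-1.08, adjusted p = 1.22e-12).

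Of 11 genes for proteins known to stabilize, glycosylate or degrade PD-L1, all tested, 6 were higher and 2 lower at 12 h (2 and 5 with scaling by library size only), 5 and 3 at 24 h, 1 and 4 at 48 h, and 3 and 4 at 72 h. The 24 h counts were 2 and 4 with library-size or upper quartile scaling, 2 and 2 without the filter on low counts and 1 and 2 with the per-gene factors. CMTM6, which protects PD-L1 from degradation, held 70.8 CPM in CTR and 71.2, 80.7, 71.3 and 69.5 CPM at 12, 24, 48 and 72 h, with log2 fold changes of 0.01, 0.19, 0.01 and -0.03 (edgeR adjusted p = 0.935, 0.035, 0.927 and 0.783). The 24 h call was lost with library-size scaling (adjusted p = 0.64), upper quartile scaling (0.0661), no filter (0.0808), a fit of 8 libraries (0.053) and the per-gene factors (0.148), and when any 1 of 7 of the 8 libraries was left out. At 12 h CMTM6 was called lower with library-size scaling (-0.28, edgeR adjusted p = 0.00404) and upper quartile scaling (-0.15, adjusted p = 0.0426). B3GNT3, a glycosyltransferase that acts on PD-L1, rose from 35.2 to 82.6 CPM at 12 h (a log2 change of 1.23, edgeR adjusted p = 1.24e-09). SPOP, an adaptor for its ubiquitination, fell at 12 h (-0.80, adjusted p = 3.37e-08). HIP1R rose by 0.67 at 12 h (edgeR adjusted p = 1.34e-04), and STT3B, an oligosaccharyltransferase subunit, fell by 0.61 at 48 h (adjusted p = 7.74e-05).

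The genes around CD73 that handle extracellular ATP and adenosine were split. Of 19 listed genes 17 were tested, with 7 higher and 6 lower at 12 h, 6 and 5 at 24 h, 5 and 4 at 48 h, and 6 and 6 at 72 h. With library totals alone as the scaling, 4 were higher and 7 lower at 12 h. ENTPD3, an ecto-enzyme upstream of CD73 that breaks down ATP and ADP, held 0.411 CPM in CTR and 0.838, 1.05, 5.34 and 19.5 CPM at the 4 times and rose at 72 h (a log2 change of 5.56, edgeR adjusted p = 1.01e-17). Like CD274, ENTPD3 was tested because of its EGF-treated libraries, so its p-value is no support for a rise. CD38, which degrades NAD, fell from 1.75 to 0.146 CPM at 24 h (-3.51, adjusted p = 3.64e-09). SLC29A1, a nucleoside transporter, rose from 25.9 to 113 CPM at 12 h (2.12, edgeR adjusted p = 2.03e-15), and PNP, which breaks down nucleosides, rose from 110.1 to 450.5 CPM (2.03, adjusted p = 7.70e-19).

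Of 11 genes of the CD47 axis other than CD47 itself, 10 were tested, with 4 higher and 1 lower at 12 h, 6 and 1 at 24 h, 7 and 1 at 48 h, and 8 and 0 at 72 h, while library totals alone as the scaling gave 4 and 4 at 12 h. SIRPG and SIRPB1, of the SIRP receptor family, rose late. SIRPG was 0.206 CPM in CTR, 0.105 at 12 h and 11.9 CPM at 72 h (a log2 change of 5.82, edgeR adjusted p = 4.08e-16), and SIRPB1 rose from 1.05 to 10.7 CPM at 72 h (3.34, adjusted p = 3.63e-14). Like CD274, SIRPG was tested because of its EGF-treated libraries, so its p-value is no support for a rise. The list counts include SIRPG and are in part fixed by that filter. With at least 10 counts required in every library, 8 genes were tested. Of these, 3 were higher and 1 lower at 12 h, 4 and 1 at 24 h, 5 and 1 at 48 h, and 6 and 0 at 72 h. THBS1, which encodes the CD47 ligand thrombospondin-1, rose from 20.6 to 139.5 CPM at 12 h (2.76, edgeR adjusted p = 3.10e-08). QPCT, a glutaminyl cyclase related to the enzyme that modifies CD47, rose from 6.49 to 38.3 CPM at 72 h (2.56, adjusted p = 1.04e-15). Immune markers rose in sum at the same late times, by the values given above, and their part in the SIRPG and SIRPB1 values was not tested.

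**Figure D5:**
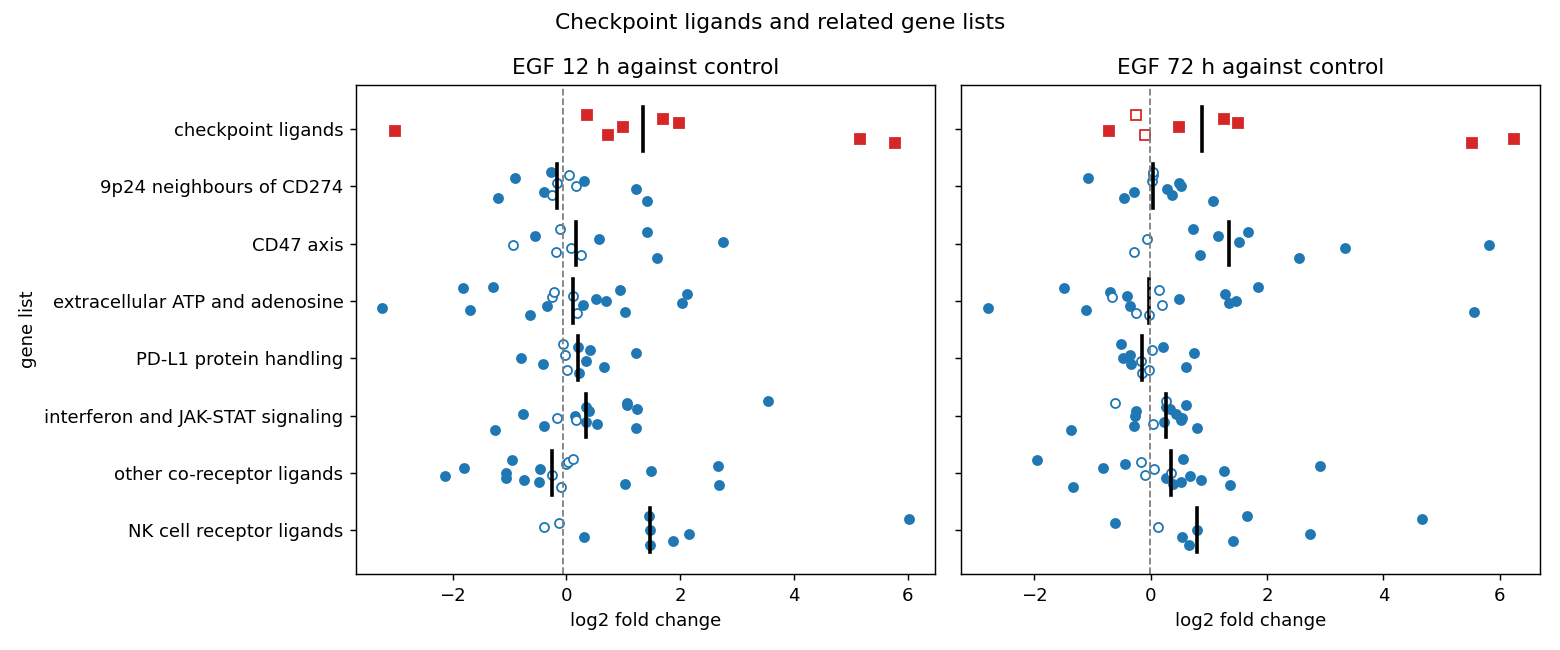
Log2 fold change against control of the checkpoint ligands (red squares) and of the genes of 7 related lists (blue circles) at 12 h (left) and 72 h (right) of EGF. Filled symbols passed an adjusted p below 0.05, black bars give each list's median and the dashed line the median of all genes; at 12 h the medians are 1.35 for the checkpoint ligands and 1.47 for the ligands of NK cell receptors. Both medians include genes that were tested because of their EGF-treated libraries.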

How the data were processed

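RNA was extracted with RNeasy, and Lexogen Corall mRNA libraries were read from 1 end for 75 bases. Per the labels, the submitters' processing notes name hg38 and DESeq2, while the aligner, the counter, the annotation release and the strand setting are not given in the sources used here. The authors deposited, per gene and library, a count that is not normalized and a normalized value on the scale of counts, treated here as a score; deposited fold changes, p-values and adjusted p-values of the authors' comparisons were not used. The deposited score divided by the count varies by gene as well as by library.

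Counts of 60271 genes were analyzed with edgeR 4.0.16 (R 4.3.3): filterByExpr kept 16522 genes, TMM scaled the libraries, and 1 robust quasi-likelihood fit of all 20 libraries gave 10 comparisons, with p-values adjusted by Benjamini-Hochberg over the 16522 genes and a threshold of 0.05. The test on whole counts was planned for estimated counts. CPM are counts scaled to a TMM-corrected library total of 1000000. Alternatives included DESeq2 1.42.0. Positions came from GENCODE 29, in which 58036 of the 60271 identifiers were found. The members and gene lists were chosen with earlier results of these data known. Beside the members, EGFR, JAK2, IRF1, IFNGR1 and CMTM6 and up to 4 called genes per list with the largest change against CTR are named, and further genes of the marker lists were named after their values were seen; some genes of the lists are not reported here. The depth limits low genes: intervals from counts cover counting error only. On simulated counts for 12 h against CTR (16025 genes), 77 of 99 genes with a log2 change of 1 were called, and 9 of 15834 unchanged genes. With a log2 change of 0.585, 52 of 92 were called. No other genes were changed in the simulation, whereas 69.4% of genes were called in the data, so the shares called may differ there.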

Additional observations from a re-analysis of the deposited data

Results flagged for a closer look

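Libraries that stood far from the other 3 of their group were found in 4 of 40 sets of 4 values, where chance alone marks about 1 in 20 sets of normally distributed values. That rate does not apply to PDCD1LG2 in CTR, where the other libraries held no count and the flag was fixed by the single count. They were CD274 at 12 h, with its highest library at 18.1 CPM, PDCD1LG2 in CTR, with the library that holds the single count at 0.0420 CPM, VTCN1 at 24 h, with its highest library at 117 CPM, and NECTIN2 at 72 h, with its lowest library at 67.5 CPM.

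Each member also differed between EGF times in the edgeR test of the times themselves. The largest differences that passed were, on the log2 scale, -2.59 for CD274 (48 against 12 h), 2.91 for PDCD1LG2 (72 against 48 h), -0.83 for CD276 (72 against 12 h), 2.67 for VTCN1 (48 against 12 h), -0.97 for CD47 (48 against 12 h), -1.83 for NT5E (48 against 12 h), -0.81 for PVR (24 against 12 h) and -0.63 for NECTIN2 (48 against 12 h). VTCN1 passed in 6 of 6 pairs of times, CD274, CD47, NT5E and PVR in 5, PDCD1LG2 in 4, and CD276 and NECTIN2 in 3. The PDCD1LG2 calls are no support for a difference, since that gene passed the filter on low counts only through its high groups.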

How the results depend on the processing

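The number of members called stayed within 1.5 times its value in each of the 10 comparisons with DESeq2, DESeq2 size factors, no low-count filter, a fit of only the 8 libraries compared, library-size and upper quartile scaling, and when any 1 library was left out. It moved with a stricter filter (10 or more counts in each library), which removes CD274 and PDCD1LG2, to 2 at 48 h against CTR and 2 at 72 against 24 h. The per-gene factors of the deposited score were taken only for genes with 20 or more counts in each library. This also removes CD274 and PDCD1LG2, and the count was 2 at 72 against 24 h. A test against a 1.5-fold change (glmTreat) gave 3 for 24 against 12 h, 2 for 72 against 12 h, 2 for 48 against 24 h and 3 for 72 against 48 h, and a 1.5-fold threshold gave 4 for 72 against 12 h and 3 for 72 against 48 h. Leaving out replicate 2 at 48 h and control replicate 2 together, an alternative chosen after seeing the data, kept all 10 counts within that range, from 4 to 8 members. Replicate numbers do not pair the libraries (40 same-number pairs, correlation -0.24 to 0.35, median 0.01, with 8 of 20 libraries closest to their own number), and with the replicate block 8, 6, 4 and 6 members were called at 12, 24, 48 and 72 h against CTR, with no call changed.

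Scaling by library size only moved the median of all genes at 12 h from -0.05 to -0.34 and upper quartile scaling moved it to -0.22. The share of higher calls among all calls moved with them from 47.4% to 30.2% and 37.2% at 12 h, and with library size only from 49.6% to 36.3% at 24 h, 51.9% to 68.6% for 24 against 12 h, 53.7% to 73.0% for 48 against 12 h, 52.6% to 68.1% for 72 against 12 h, 51.5% to 71.8% for 48 against 24 h, 51.2% to 62.6% for 72 against 24 h and 50.0% to 33.8% for 72 against 48 h. Upper quartile scaling gave 66.1%, 65.5% and 63.0% for 24, 48 and 72 against 12 h, and the per-gene factors gave 39.3%, 39.9% and 39.4%.

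Signs changed in differences near 0. With library-size scaling these were CD276 at 24 h (-0.078), CD276 and NECTIN2 for 48 against 24 h (0.15 and 0.11), NECTIN2 for 72 against 24 h (0.029) and 72 against 48 h (-0.080), and JAK2 and CMTM6 at 12 h (-0.10 and -0.28, the last with adjusted p = 0.00404). With upper quartile scaling they were CD276 and NECTIN2 for 48 against 24 h (0.065 and 0.024), NECTIN2 for 72 against 48 h (-0.040), and CMTM6 at 12 h (-0.15). With at least 10 counts they were CD276 for 48 against 24 h (0.033), NECTIN2 for 72 against 24 h (0.011) and CMTM6 at 12 h (-0.029) and 72 h (0.029). The per-gene factors gave -0.014 for CD276 and -0.17 for CD47 at 48 h, and -0.14 and -0.043 for CMTM6 at 12 and 48 h. The fit of 8 libraries gave 0.0093 for CD276 (48 against 24 h), and leaving out both replicates 2 of CTR and 48 h gave -0.0034 for CMTM6 at 12 h. Leaving out 1 library, CD276 ranged from -0.020 to 0.16 at 24 h, -0.024 to 0.15 at 48 h and -0.082 to 0.059 for 48 against 24 h, CD47 from -0.042 to 0.12 at 48 h, NECTIN2 from -0.12 to 0.035, -0.10 to 0.026 and -0.077 to 0.083 for 48 against 24, 72 against 24 and 72 against 48 h, and CMTM6 from -0.029 to 0.060, -0.050 to 0.087 and -0.042 to 0.013 at 12, 48 and 72 h. The CMTM6 call at 24 h was lost in 7 of 8 leave-one-out fits, and the IRF1 calls at 24 and 72 h in 2 and 5 of 8. The cause was not tested. Low counts limit CD274 and PDCD1LG2 in CTR.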

Other observations

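Ligands that alert rather than restrain NK cells also changed. Of the 9 genes for ligands of the activating receptors NKG2D and NKp30, 7 were higher and 0 lower than in CTR at 12 h, 6 and 1 at 24 h, 7 and 0 at 48 h, and 7 and 1 at 72 h, with medians of 1.47, 0.90, 0.92 and 0.80 on the log2 scale. Among all genes, 69.4%, 58.8%, 45.8% and 61.6% were called at these times, and 32.9%, 29.2%, 24% and 30.6% were called higher. The medians over all genes were -0.05, -0.01, 0.01 and -0.01. With scaling by library size only, 6 were higher and 0 lower at 12 h. RAET1L had the largest change, from 0.478 ± 0.195 CPM (SD, n = 4) in CTR to 32.2 ± 1.34 CPM at 12 h (a log2 change of 6.03, edgeR adjusted p = 1.29e-15), 3.89 CPM at 48 h and 12.4 CPM at 72 h. Like CD274, RAET1L was tested because of its EGF-treated libraries, so its p-value is no support for a rise. The list counts and medians include RAET1L and are in part fixed by that filter. With at least 10 counts required in every library, 7 genes were tested. Of these, 6 were higher and 0 lower at 12 h, 5 and 1 at 24 h, 5 and 0 at 48 h, and 6 and 1 at 72 h. Their medians were 1.43, 0.90, 0.42 and 0.85. ULBP2 rose from 7.41 CPM to 33.0 CPM at 12 h and 49.6 CPM at 72 h (2.74 at 72 h, adjusted p = 3.92e-16), and MICB from 31.1 to 114 CPM at 12 h (1.87, edgeR adjusted p = 2.45e-14). NCR3LG1, which encodes the NKp30 ligand B7-H6, rose from 2.59 to 10.7 CPM at 24 h (2.04, edgeR adjusted p = 1.37e-12).

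Of 8 epithelial markers, 8 were higher at 12 h, 6 higher and 1 lower at 24 h, 1 and 2 at 48 h, and 4 and 2 at 72 h. Over all genes the shares were 32.9% higher and 36.5% lower at 12 h, and 29.2% and 29.6% at 24 h. They were 24% and 21.8% at 48 h, and 30.6% and 31% at 72 h. KRT18 was 787 CPM in CTR, 5134 CPM at 12 h and 834 CPM at 48 h, and CDH1, which encodes E-cadherin, was 127, 181 and 92.8 CPM at those times.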
